A study of Mus musculus with 4 samples.

Results

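Imprinted genes are transcribed mainly or only from the chromosome of 1 parent. The 34 described here are imprinted genes linked to growth, among them Igf2, H19, Dlk1, Meg3, Peg3, Cdkn1c, Grb10 and Igf2r, and they were taken by symbol from the gene column of the count table. All 34 were found, each on 1 row, among 55487 genes. RNA had been isolated from the mammary fat pad (MFP), the fat depot in which the mouse mammary gland is embedded, of female C57BL/6J mice at 2 ages. Young mice were 8 weeks old (libraries young 1 and young 2) and aged mice were 14 months old (libraries aged 1 and aged 2). No transgene, deletion or treatment is named for either age. The tissue was lysed whole, so each library mixes fat cells with every other cell type of the pad. Ribosomal RNA had been depleted and strand-specific libraries were made from total RNA, so long noncoding RNAs were measured beside mRNAs.

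At most imprinted loci a control region carries DNA methylation on the chromosome of 1 parent, and that mark decides which copy of each nearby gene is transcribed. Paternally expressed genes such as Igf2 and Mest are known mainly as promoters of fetal and juvenile growth, while several maternally expressed genes, such as Cdkn1c, Grb10 and Igf2r, restrain it. Many of these genes are most active before and shortly after birth and become less active as tissues mature, and the comparison of aged with young MFP addressed whether their levels were lower at the older age. The counts sum both parental copies, so the parental classes below come from textbook knowledge and no allele was measured.

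Each library held between 68803304 and 98402403 counted reads. Levels are given as CPM, the reads of a gene per 1000000 reads of the library's TMM-scaled total (a correction for differences in library composition), and at these depths 3 reads correspond to 0.0337 to 0.0407 CPM. The labelled tissue showed its defining markers, since all 9 adipocyte markers were abundant and were higher in both aged libraries, with a summed level of 13865 and 11008 CPM in aged 1 and aged 2 against 8797 and 9045 CPM in young 1 and young 2. All 12 skeletal muscle markers were also higher in both aged libraries (43928 and 70759 CPM summed, against 11418 and 15898 CPM). Of all genes tested, 23.3% were higher in both aged libraries. Library young 1 stood apart from the other 3, with a summed level of 8 immune markers of 1609 CPM against 144 to 353 CPM. Fewer cells of a type and less RNA per cell cannot be told apart in such libraries. The labels call the 2 libraries of an age biological replicates, and p-values below measure the spread between them. With 2 libraries against 2, an exact permutation test of a single gene cannot give a two-sided p under 0.333.

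More of the imprinted growth genes were higher than lower in aged MFP. The fall for which such genes are known follows their peak before and shortly after birth. No library came from those ages, so that fall was not tested. Of the 34 genes, 31 had enough reads to be tested and 3 did not, namely Rtl1, Dio3 and Magel2. The log2 fold change, aged over young, was positive for 19 tested members and negative for 12, with a median of 0.27, beside a median of -0.04 over all 22485 genes tested. Without library aged 1 the members' median was -0.08, so its sign rested on that library. No member was called by edgeR's quasi-likelihood test at an adjusted p under 0.05, and neither was any other gene of the table (0% called), the smallest adjusted p of a member being 0.361. At an unadjusted p under 0.05 the same test marked 7 members as higher and 4 as lower in aged MFP, beside 7.24% and 3.31% of all genes. DESeq2, run as an alternative, called 5 members, beside 3.67% of all genes it tested. Nap1l5 and Peg13 were the members it called higher in aged MFP, beside 3.03% of all genes, and Meg3, Rian and Mirg were those it called lower, beside 0.642% of all genes.

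The libraries of the 2 ages did not overlap for 18 members. Both aged libraries were above both young libraries for 12 members (38.7% of 31, beside 23.3% of all genes), and both were below for 6 members (19.4%, beside 22.8%). The 6 were H19, Meg3, Rian, Mirg, Kcnq1ot1 and Ndn, of which the first 5 in this list are long noncoding RNAs. The 12 were Nap1l5, Slc38a4, Asb4, Sgce, Peg13, Snrpn, Usp29, Gnas, Impact, Cdkn1c, Peg10 and Igf2r. With any 1 library left out, non-overlap became more frequent among all genes too. The members then on the higher and lower side numbered 13 and 11 without aged 1 (beside 32.7% and 31.7% of all genes), 17 and 6 without aged 2 (33.1% and 34.5%), 13 and 12 without young 1 (38.4% and 38%), and 19 and 7 without young 2 (41.4% and 42.3%).

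**Figure D1:**
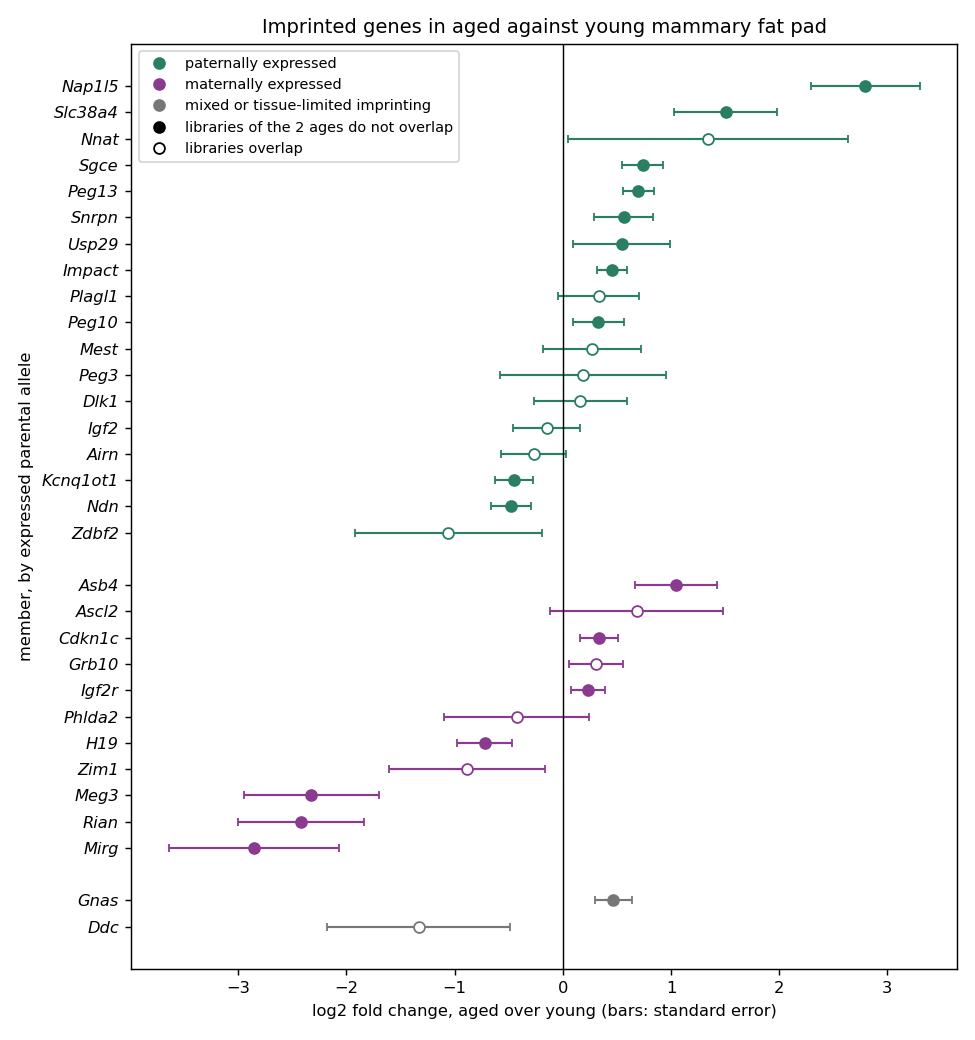
Log2 fold change (aged over young, horizontal axis) of the 31 tested members, grouped by the parental allele from which each is known to be expressed; points are edgeR estimates from 2 aged and 2 young libraries and bars are standard errors. Meg3, Rian and Mirg lie between -2.85 and -2.32, apart from the other members, and Nap1l5 lies at 2.80.

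The parental classes had medians of opposite sign. The 21 paternally expressed members had a median log2 fold change of 0.33 over the 18 that were tested, with 13 positive and 5 negative. The 11 maternally expressed members were all tested and had a median of -0.43, with 5 positive and 6 negative. The 6 negative values include Meg3, Rian and Mirg, which belong to a single transcription unit and are not independent. The median itself is the value of Phlda2, which rested on 20 to 50 reads per library and overlapped between the ages. Of the 4 members that were lower in aged MFP at an unadjusted p under 0.05, all belonged to the maternal class, and 3 of them, Meg3, Rian and Mirg, are parts of a single locus. Without library young 2 the maternal median was 0.32, and without library aged 1 the paternal median was -0.04, so the sign of each rested on that library. The remaining members, Gnas and Ddc, are imprinted in some tissues or transcripts only and were kept apart.

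Levels between genes were compared per length, as RPKM (the CPM divided by the gene's annotated exon length in kilobases), averaged over the 4 libraries. Nnat, which encodes the small membrane protein neuronatin, was the highest at 88.5 RPKM. It was followed by Gnas, encoding the stimulatory G protein alpha subunit, at 53.6 RPKM, and by the noncoding RNA H19 at 53.0 RPKM. Igf2r, the receptor that clears IGF2 from the cell surface, followed at 23.2 RPKM, and Peg13, a noncoding RNA within an intron of Trappc9, at 15.9 RPKM. The order of the highest genes was not firm, because Nnat alone ranged from 16.8 RPKM in aged 2 to 237 RPKM in aged 1, which spans the values of Gnas and H19. It also depends on the annotated exon length, which was 11186 bases for Gnas and 1829 bases for Nnat. By CPM, Gnas was above Nnat in every library. At the other end Igf2 averaged 0.485 RPKM and Dlk1 0.162 RPKM, so the growth factor and the preadipocyte factor for which their loci are named were both scarce in the pads of either age. The value of Igf2 may be too low, because 3596 of its 5723 exonic bases are shared with another gene of the same strand.

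**Figure D2:**
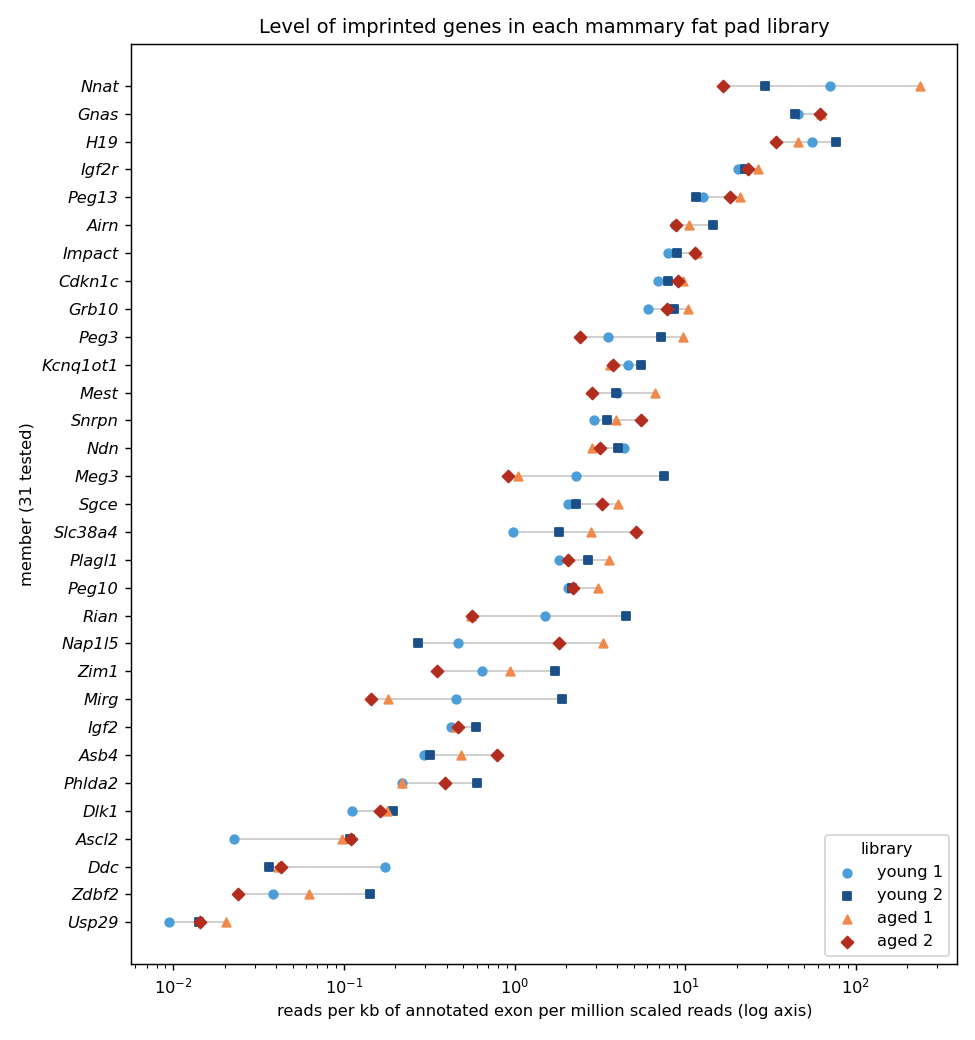
Level of each of the 31 tested members in RPKM (horizontal log axis), with 1 point per library. Nnat spans from 16.8 to 237 RPKM within the aged libraries, whereas the aged points of Meg3, Rian and Mirg lie together below both young points.

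The Dlk1/Meg3 locus on chromosome 12 held the members with the lowest aged-to-young ratios. Its paternally expressed genes are Dlk1, whose protein holds preadipocytes back from differentiating, Rtl1, a retrotransposon-derived gene, and Dio3, the enzyme that inactivates thyroid hormone. Its maternally expressed genes are Meg3, Rian and Mirg, long noncoding RNAs that lie 1 after the other on the plus strand and are known to form a single long transcription unit carrying snoRNAs in Rian and miRNAs along most of its length. In the GENCODE M21 annotation of GRCm38, Dlk1 lies at chr12:109452823-109463336, Meg3 at chr12:109541001-109571726, Rian at chr12:109603940-109661716 and Mirg at chr12:109729764-109749460.

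Meg3 was measured at 18.9 CPM in aged 1 and 16.5 CPM in aged 2, against 41.6 CPM in young 1 and 136 CPM in young 2. Both aged libraries were below both young ones, and the young libraries differed from each other by more than the lower young library differed from the aged ones. The log2 fold change was -2.32 ± 0.62 (SE), with an adjusted p of 0.418 by edgeR and 0.00635 by DESeq2. Rian, the host of the snoRNAs, had 10.1 and 10.3 CPM in aged 1 and aged 2, against 27.6 and 81.8 CPM in young 1 and young 2, a log2 fold change of -2.42 ± 0.58 (adjusted p = 0.406 by edgeR and 0.0016 by DESeq2). Mirg, the host of the most distal miRNAs, had 1.32 and 1.06 CPM in aged 1 and aged 2, against 3.33 and 13.8 CPM in young 1 and young 2. Its log2 fold change was -2.85 ± 0.79 (adjusted p = 0.418 by edgeR and 0.00542 by DESeq2). In each of these 3 genes the aged libraries were close to each other, and young 2 exceeded young 1 by a larger factor than young 1 exceeded either aged library. Without young 2, the log2 fold changes were -1.22 for Meg3, -1.42 for Rian and -1.47 for Mirg, still on the lower side. Markers of mammary epithelium were also highest in young 2 when summed over 10 genes (2764 CPM, against 1149 CPM in young 1 and 1902 to 2180 CPM in the aged libraries). Prlr alone gave 1426 CPM of the sum in young 2. Krt8, Krt18, Epcam, Elf5, Csn2 and Csn3 were also highest there, whereas Krt5 and Krt14 were higher in both aged libraries than in either young one. The milk protein gene Wap was at 0 in all 4 libraries. The 10 markers of stromal progenitors summed to 863 CPM in young 2, 905 CPM in young 1 and 696 to 843 CPM in the aged libraries, with 3 of 10 lower and 4 of 10 higher in both aged libraries (beside 22.8% and 23.3% of all genes) and none at 0. The stromal markers did not share a pattern. Pi16 had 68.5 CPM in young 2 against 12.1 to 19.4 CPM in the other libraries, and Anxa3 was also highest in young 2. Dpp4, Icam1, Cd55 and Col15a1 were highest in young 1, and Pdgfra, Cd34, Ly6a and F3 were highest in an aged library. The part of these cell types in the result was not tested.

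Dlk1, by contrast, overlapped between the ages. It had 1.02 and 0.921 CPM in aged 1 and aged 2 and 0.634 and 1.10 CPM in young 1 and young 2, for a log2 fold change of 0.16 ± 0.43 (adjusted p = 0.886, edgeR). Its sign was not firm, being -0.02 when libraries were scaled by total counts only. The ratio of Meg3 to Dlk1 per length was 5.84 and 5.60 in aged 1 and aged 2 but 20.5 and 38.7 in young 1 and young 2. Rtl1 was read 7 times in young 2 and not at all in the other libraries, where a count of 0 allows up to 0.0337 to 0.0367 CPM. Dio3 had between 0 and 6 reads per library, so no difference was detectable at this depth for either gene.

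The proportions of the transcripts within the unit differed less between the ages than their levels did. Rian relative to Meg3 per length was 0.531 and 0.619 in aged 1 and aged 2 and 0.657 and 0.597 in young 1 and young 2, so the ages overlapped. Mirg relative to Meg3 was 0.173 and 0.159 in the aged libraries and 0.199 and 0.253 in the young libraries, without overlap. The log2 difference of -0.43 is small beside the log2 fold change of either gene. Between the start of Meg3 and the end of Mirg, 87 other annotated genes lie on the plus strand, and 62 of them had reads. Of the 36 with at least 10 reads over the 4 libraries, 30 were lower in both aged libraries than in both young ones and 0 were higher, beside 21.8% and 22.4% of all genes with as many reads. These shares were not matched for read number, and some separations were within counting error. Mir376c had 2 and 3 reads in aged 1 and aged 2 against 3 and 13 in young 1 and young 2. For Mir654 the counts were 0 and 3 against 3 and 6. In 34 of the 36 the highest library was young 2. Together the 87 genes received 226 and 213 reads in aged 1 and aged 2, against 561 reads in young 1 and 1655 reads in young 2. They are neighbours within 1 transcription unit, and some lie inside exons of Meg3, Rian or Mirg, so they are not independent of the 3 members. Reads on bases shared with those exons may not have been counted for the inner genes. On the minus strand of the same interval 8 genes are annotated, and their only reads were the 7 of Rtl1.

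**Figure D3:**
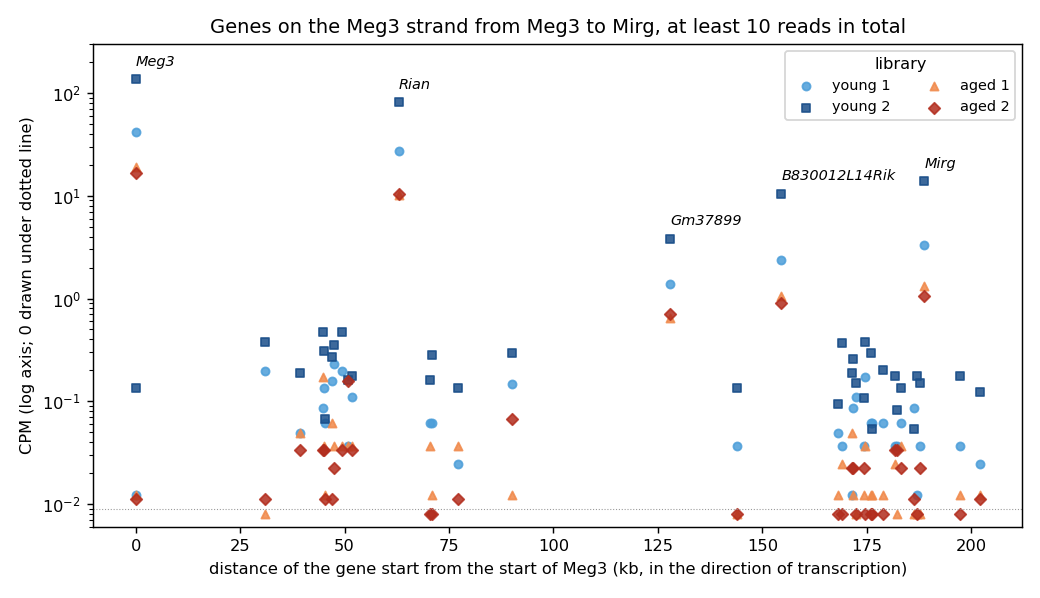
CPM (vertical log axis, with values of 0 drawn under the dotted line) of the genes on the Meg3 strand with at least 10 reads in total, placed by the distance of each gene's start from the start of Meg3 in kilobases, with 1 point per library. Along the whole unit young 2 is mostly the highest, young 1 follows, and the aged libraries are mostly the lowest. Of 36 neighbouring genes 30 are lower in both aged libraries, some of them by differences within counting error.

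Among the plus-strand neighbours, B830012L14Rik, a noncoding transcript, had the most reads. Its level was 1.06 and 0.910 CPM in aged 1 and aged 2, against 2.38 and 10.4 CPM in young 1 and young 2, a log2 fold change of -2.70 ± 0.81 (adjusted p = 0.436 by edgeR and 0.0155 by DESeq2). Gm37899 followed, with 53 and 63 reads in aged 1 and aged 2 and 114 and 283 reads in young 1 and young 2. The 59 annotated miRNA genes of the strand received 83 and 59 reads in the aged libraries, against 230 and 541 reads in young 1 and young 2. Of the 31 miRNA genes with at least 10 reads, 26 were lower in both aged libraries and 0 were higher, beside 21.8% and 22.4% of all genes with as many reads. Some of the 26 separated within counting error, as given above for Mir376c and Mir654. These reads come from RNA that covers the hairpins, since the libraries were not made from size-selected small RNA, and mature miRNAs were not measured. The 6 miRNA genes on the strand opposite to the Rtl1 exon, whose miRNAs are known to guide cleavage of Rtl1 RNA, received 9 and 20 reads in aged 1 and aged 2 and 37 and 66 reads in young 1 and young 2.

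The mature products of the hairpins with the most reads are shown because they are what this part of the unit encodes, with the seed (bases 2 to 8) in capitals. The sequences are those of RefSeq on GRCm38.p6, in which 57 of the 59 miRNA genes were matched by symbol. Mir337 had 59 reads, Mir431 had 57, Mir3070b had 50, and Mir673 and Mir679 had 45 each.
mmu-miR-337-5p: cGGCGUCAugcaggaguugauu
mmu-miR-337-3p: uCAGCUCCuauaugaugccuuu
mmu-miR-431-5p: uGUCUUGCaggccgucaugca
mmu-miR-431-3p: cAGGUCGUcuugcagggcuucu
mmu-miR-3070-5p: aGCCCCUGaccuugaaccuggga
mmu-miR-3070-2-3p: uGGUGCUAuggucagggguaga
mmu-miR-673-5p: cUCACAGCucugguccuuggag
mmu-miR-679-5p: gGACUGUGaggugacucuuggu

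Mir431, transcribed opposite to Rtl1, had 3 reads in each aged library against 16 in young 1 and 35 in young 2. Mir3070b had 3 and 2 reads in aged 1 and aged 2 against 19 and 26 in young 1 and young 2. For Mir673 the counts were 0 and 1 in the aged libraries and 16 and 28 in the young libraries, which puts the young level at least 8.17-fold above the limit of 3 reads per aged library. The ages did not overlap for these 3 hairpins. Mir337 did overlap, with 14 and 3 reads in aged 1 and aged 2 against 7 and 35 in young 1 and young 2. The hairpins are known as relatives of each other in places, and 9 seeds were shared by at least 2 hairpins of the unit. The pairs below are shown because members of each pair share a seed and lie within 10 kb of each other, as far as the 3′ products of Mir379 and Mir411 and the 5′ products of Mir379 and Mir1193 go.
mmu-miR-379-3p: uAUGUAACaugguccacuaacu
mmu-miR-411-3p: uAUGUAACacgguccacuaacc
mmu-miR-379-5p: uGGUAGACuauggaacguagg
mmu-miR-1193-5p: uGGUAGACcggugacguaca

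Mir379 had 1 and 0 reads in aged 1 and aged 2 against 4 and 7 in young 1 and young 2. For Mir411 these counts were 2 and 0 against 3 and 27, again without overlap. The 2 reads of aged 1 and 3 reads of young 1 differ by less than counting error, so only young 2 stood apart. Mir1193 had 7 reads in all, 5 of them in young 2.

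The start of the unit is shown because transcription of the unit is known to begin there. The RefSeq window from 250 bases before to 50 bases after the upstream start of Meg3 lies at chr12:109540746-109541045 on the plus strand of GRCm38.p6. The capitals mark TGACGTCA, the cAMP response element, 57 bases before the start, and GCGGCA, the other strand of TGCCGC, the core bound by the imprint-protecting factor ZFP57, 190 bases before the start.
Meg3 promoter: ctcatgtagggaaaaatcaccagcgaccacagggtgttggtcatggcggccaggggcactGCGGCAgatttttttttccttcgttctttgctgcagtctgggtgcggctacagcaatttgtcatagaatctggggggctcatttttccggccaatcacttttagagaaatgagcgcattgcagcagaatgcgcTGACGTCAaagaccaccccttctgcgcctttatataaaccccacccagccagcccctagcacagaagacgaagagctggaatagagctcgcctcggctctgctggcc

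On both strands, TGACGTCA was found in 1.79% of the 32851 windows of this length in the table and in 4 of the 45 windows of the 27 members that had any. The 4 belonged to Meg3, Peg3, Usp29 and Zdbf2, and those of Peg3 and Usp29 overlap each other. TGCCGC was found in 11.6% of all windows and in 11 of the 45 member windows, TATAAA in 13.6% and 12, and AANATGGC, a core of the YY1 motif, in 6.05% and 1. Windows of the same gene can overlap, as at Mest for TGCCGC and at Gnas for TATAAA, so the member windows are not independent. The Meg3 window held 13 CpG dinucleotides, against a median of 7 over all windows and 11 over the member windows. No TGACGTCA was found in the windows of Rian, Mirg or the downstream start of Meg3, which held 0, 10 and 1 CpG dinucleotides. Members with these letters did not share a direction, since Peg3, Usp29 and Zdbf2 had log2 fold changes of 0.18, 0.54 and -1.06 and none was called. The matches are letters in a window and show no binding.

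The Igf2/H19 locus on chromosome 7 pairs a fetal growth factor, made from the paternal copy, with a maternally expressed noncoding RNA that is known to hold growth back. Igf2 lies at chr7:142650766-142666816 and H19 at chr7:142575529-142578143, both on the minus strand of GRCm38. H19 was measured at 113 and 83.5 CPM in aged 1 and aged 2, against 135 and 189 CPM in young 1 and young 2. The ages did not overlap, and the log2 fold change was -0.72 ± 0.26 (adjusted p = 0.467 by edgeR and 0.301 by DESeq2). Igf2 had 2.58 and 2.68 CPM in aged 1 and aged 2 and 2.44 and 3.40 CPM in young 1 and young 2, which overlapped (log2 fold change -0.15 ± 0.31, adjusted p = 0.85, edgeR). Its counts ranged only from 200 to 251 reads per library. Igf2 shares 3596 of its 5723 annotated exonic bases with Gm49394 on the same strand. Gm49394 had 32, 1, 2 and 0 reads in aged 1, aged 2, young 1 and young 2. Genes inside same-strand exons of others, such as Mir770 in Meg3 and Snurf in Snrpn, had 0 reads. Reads on shared bases may therefore not have been counted, which would make the level of Igf2 per length too low. Per length, H19 exceeded Igf2 by 102 and 72.4 times in aged 1 and aged 2 and by 129 times in each young library. These ratios may be too high for the same reason. The miRNA gene Mir675 shares 84 bases with an H19 exon on the same strand and had no reads. Reads on shared bases may not have been counted, so this does not show that RNA over the hairpin was absent.

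The Kcnq1 locus, also on chromosome 7, is controlled by Kcnq1ot1, a long antisense RNA of the paternal chromosome that silences its neighbours there, so that Cdkn1c, Phlda2 and Ascl2 are expressed from the maternal copy. Kcnq1ot1 (chr7:143203458-143296549) had 339 and 349 CPM in aged 1 and aged 2, against 428 and 513 CPM in young 1 and young 2 (log2 fold change -0.45 ± 0.18, adjusted p = 0.488, edgeR). Cdkn1c, a cyclin-dependent kinase inhibitor that limits cell division, was higher in both aged libraries. Its level was 19.7 and 18.6 CPM in aged 1 and aged 2, against 14.1 and 16.2 CPM in young 1 and young 2 (log2 fold change 0.33 ± 0.18, adjusted p = 0.537, edgeR). The ages did not overlap in either gene, and neither was called. The ratio of Kcnq1ot1 to Cdkn1c per length was 0.377 and 0.412 in the aged libraries and 0.666 and 0.693 in the young libraries. Phlda2, which restrains growth of the placenta, had 20 to 50 reads per library and overlapped between the ages. Ascl2, a transcription factor of trophoblast and stem cells, had 3 to 16 reads and overlapped as well. Summed markers of cell division were 16.3 and 43.3 CPM in aged 1 and aged 2 and 129 and 42.1 CPM in young 1 and young 2. The sum of young 2 was thus below that of aged 2, and young 1 stood above the rest. Of the 12 markers, 7 were lower in both aged libraries, beside 22.8% of all genes.

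**Figure D4:**
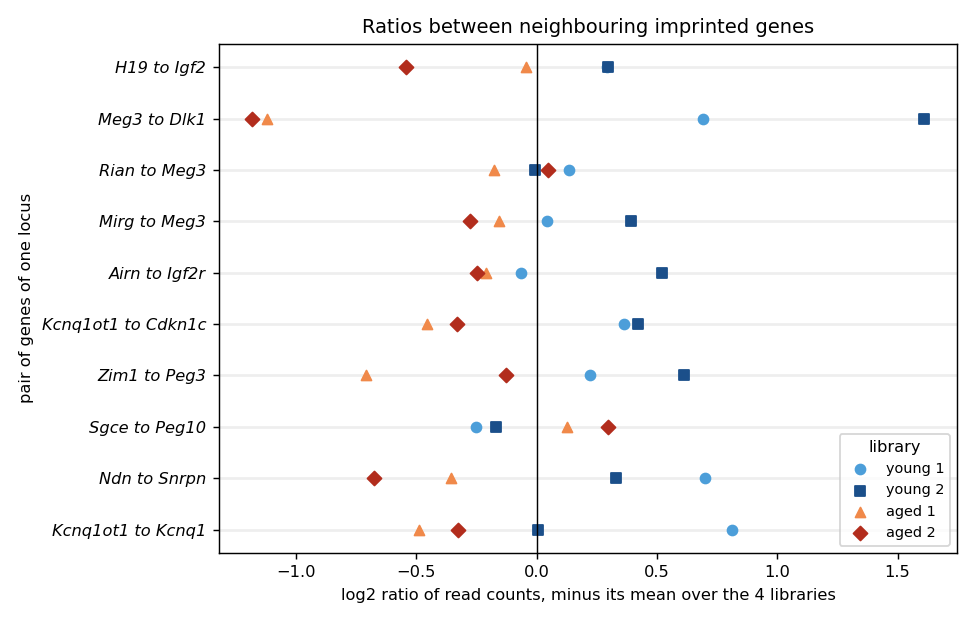
Log2 ratio of read counts between neighbouring imprinted genes, shown as the difference from the mean of the 4 libraries (horizontal axis), with 1 point per library; the 2 young points of H19 to Igf2 coincide. The ages overlap for Rian to Meg3 and separate for every other pair shown. How often the ages separate for other pairs of genes was not determined.

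The Peg3 locus on proximal chromosome 7 holds Peg3, a zinc finger gene known for its part in maternal care and growth, Usp29, which starts beside it on the other strand, and the maternally expressed Zim1. Peg3 (chr7:6703892-6730431) had 129.5 and 32.3 CPM in aged 1 and aged 2 and 46.7 and 95.7 CPM in young 1 and young 2. The aged libraries thus enclosed the young ones, and the log2 fold change of 0.18 ± 0.77 had no firm sign (adjusted p = 0.931, edgeR). Usp29 (chr7:6730578-6967219) had 0.367 and 0.258 CPM in aged 1 and aged 2 and 0.171 and 0.257 CPM in young 1 and young 2. Its aged values did not overlap the young ones, but it rested on 14 to 30 reads per library, and aged 2 and young 2 differed by less than counting error. Zim1 ranged from 2.83 CPM in aged 2 to 14 CPM in young 2 and overlapped. Zim1 relative to Peg3 per length was 0.0964 and 0.144 in aged 1 and aged 2. That ratio was 0.184 and 0.241 in young 1 and young 2, without overlap. Of the 9 other genes annotated within the locus, none reached 10 reads in total.

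Among the paternally expressed members outside these loci, Nap1l5 had the highest positive log2 fold change of all tested members. Nap1l5, a nucleosome assembly protein family gene within an intron of Herc3 (chr6:58905233-58907076), had 6.07 and 3.37 CPM in aged 1 and aged 2, against 0.854 and 0.501 CPM in young 1 and young 2. The lower aged library was above the higher young library, and the log2 fold change was 2.80 ± 0.50, or 6.94-fold (adjusted p = 0.361 by edgeR and 2.54e-05 by DESeq2). It stayed between 2.30 and 3.23 when any 1 library was left out. Peg13 had 99.6 and 86.6 CPM in aged 1 and aged 2, against 60.0 and 54.9 CPM in young 1 and young 2 (log2 fold change 0.70 ± 0.14, adjusted p = 0.381 by edgeR and 0.042 by DESeq2). These were the members called higher by DESeq2, and all 12 skeletal muscle markers and all 9 adipocyte markers were higher in the same aged libraries. The part of those cell types in either result was not tested.

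Slc38a4, an amino acid transporter, had 11.9 and 21.8 CPM in aged 1 and aged 2, against 4.16 and 7.74 CPM in young 1 and young 2 (log2 fold change 1.51 ± 0.48). Impact, a regulator of the translational stress response, had 59.9 and 58.9 CPM in the aged libraries, against 40.6 and 45.9 CPM in young 1 and young 2 (log2 fold change 0.46 ± 0.14). Both genes had no overlap between the ages and were not called, with adjusted p = 0.453 and 0.437 by edgeR. Gnas had 702 and 691 CPM in aged 1 and aged 2, against 515 and 492 CPM in young 1 and young 2 (log2 fold change 0.47 ± 0.17, adjusted p = 0.474, edgeR). Gnas shares 988 exonic bases with Gnasas1 on the opposite strand, and the counting's strand setting is not given in the sources used here. Gnasas1 itself had 12, 29, 194 and 159 reads in aged 1, aged 2, young 1 and young 2, few beside the 36336 to 61512 reads of Gnas.

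The Peg10/Sgce locus on chromosome 6 was the locus whose tested members were all higher in aged MFP, where the median of their log2 fold changes was 0.74. Sgce, the sarcoglycan epsilon of the dystrophin-associated complex, had 42.6 and 34.5 CPM in aged 1 and aged 2, against 21.9 and 24.4 CPM in young 1 and young 2 (log2 fold change 0.74 ± 0.19, adjusted p = 0.409, edgeR). Peg10, a retrotransposon-derived gene needed by the placenta that is transcribed away from the same promoter region, had 20.5 and 14.7 CPM in the aged libraries, against 13.6 and 14.4 CPM in the young. Its lowest aged and highest young values nearly met. Asb4, an ankyrin repeat protein of the maternal class, had 1.91 and 3.10 CPM in aged 1 and aged 2, against 1.16 and 1.26 CPM in young 1 and young 2 (log2 fold change 1.05 ± 0.38, adjusted p = 0.474, edgeR). Sgce relative to Peg10 by read count was 2.08 and 2.34 in aged 1 and aged 2 and 1.60 and 1.70 in young 1 and young 2, without overlap.

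In the Snrpn/Ndn domain, the mouse counterpart of the Prader-Willi region, the paternally expressed genes did not share a direction. Snrpn, a spliceosome component, had 8.49 and 11.8 CPM in aged 1 and aged 2, against 6.28 and 7.49 CPM in young 1 and young 2 (log2 fold change 0.56 ± 0.27, adjusted p = 0.523, edgeR). Ndn, whose product necdin restrains cell growth and adipogenesis, had 10.5 and 11.7 CPM in the aged libraries, against 16.1 and 14.9 CPM in young 1 and young 2 (log2 fold change -0.48 ± 0.19, adjusted p = 0.487, edgeR). Per length the ratio of Ndn to Snrpn was 0.720 and 0.577 in aged 1 and aged 2 and 1.49 and 1.16 in young 1 and young 2. Snrpn shares exons with Gm38393, which had 190 to 240 reads per library, and with Snurf, which had none, so its own count is uncertain. Magel2 had 1 read in young 1 and none elsewhere.

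At the growth-restraining receptor locus, Igf2r (chr17:12682406-12769664) had 250.1 and 217 CPM in aged 1 and aged 2, against 189 and 209.7 CPM in young 1 and young 2 (log2 fold change 0.23 ± 0.16, adjusted p = 0.58, edgeR). Airn, the paternal antisense RNA that starts inside Igf2r and silences it on that chromosome, had 37.8 and 31.9 CPM in the aged libraries and 31.4 and 52.5 CPM in young 1 and young 2, which overlapped. Airn relative to Igf2r per length was 0.391 and 0.380 in aged 1 and aged 2 and 0.432 and 0.648 in young 1 and young 2. Grb10, an adaptor that dampens insulin and IGF1 receptor signalling, had 93.9 and 71.3 CPM in the aged libraries and 55.4 and 78.4 CPM in the young libraries, with overlap. Its neighbour Ddc, which makes dopamine and serotonin from their precursors, had 0.781 CPM in young 1 and between 0.163 and 0.191 CPM in the other 3 libraries.

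The remaining members overlapped between the ages. Nnat had 434 and 30.7 CPM in aged 1 and aged 2 and 129 and 53.8 CPM in young 1 and young 2, so that the aged libraries differed from each other more than the ages did (log2 fold change 1.34 ± 1.29, adjusted p = 0.676, edgeR). Mest, a hydrolase-like gene that marks expanding fat, had 26.4 CPM in aged 1 and 11.2 to 15.7 CPM in the other 3 libraries. Plagl1, a zinc finger regulator of other imprinted genes, ranged from 14.2 to 28.1 CPM. Zdbf2, a growth-related gene of chromosome 1, ranged from 0.303 CPM in aged 2 to 1.80 CPM in young 2. Mest, Plagl1 and Nnat, like Peg3, each had the highest value in aged 1.

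Genes of the IGF axis outside the imprinted set gave a background for Igf2 and Igf2r. Of 21 such genes (ligands, receptors, binding proteins, substrates and mRNA-binding proteins), 19 were tested, with a median log2 fold change of 0.17 and 0 called by edgeR. At an unadjusted p under 0.05 in that test, 0 were higher and 2 were lower, beside 7.24% and 3.31% of all genes. DESeq2 called 2, beside 3.67% of all genes it tested. Igfbp2, a binding protein that limits access of IGFs to their receptors, had 0.819 and 0.517 CPM in aged 1 and aged 2, against 5.59 and 7.25 CPM in young 1 and young 2 (log2 fold change -3.26 ± 0.39, adjusted p = 0.36 by edgeR and 7.45e-12 by DESeq2). Igf2bp1, a fetal mRNA-binding protein that binds Igf2 and H19 RNA, had 1 and 0 reads in the aged libraries against 35 and 59 reads in young 1 and young 2, at least 17.4-fold lower in aged MFP at the limit of 3 reads per library. Both genes were lower in the aged libraries without overlap, in contrast to Igf2 itself.

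Of 14 juvenile growth genes that are not imprinted, 11 were tested, with a median log2 fold change of -0.52, 2 positive and 9 negative, and 0 called by edgeR. At an unadjusted p under 0.05 in that test, 0 were higher and 2 lower, beside 7.24% and 3.31% of all genes. DESeq2 called 1, beside 3.67% of all genes it tested. Igf2bp1 stood first by size, followed by Igf2bp3 at -2.55 ± 1.30, which was high in young 1 only (2.29 CPM against 0.110 to 0.314 CPM). Of 13 genes that maintain imprints, 11 were tested, with a median of -0.19 and 0 called by edgeR (0 higher and 2 lower at an unadjusted p under 0.05, and 0 by DESeq2, beside the same shares of all genes). Uhrf1, which brings maintenance methylation to replicating DNA and is most abundant in dividing cells, had 3.40 and 5.17 CPM in aged 1 and aged 2, against 18.5 and 7.91 CPM in young 1 and young 2. Dnmt3l, a cofactor of germline methylation, ranged from 1.30 CPM in aged 1 to 5.75 CPM in aged 2 and overlapped.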

How the data were processed

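The deposited file holds raw read counts per gene, which the authors made with featureCounts on GRCm38 per the labels; the aligner, annotation release and strand setting are not given in the sources used here. Counts were used as deposited. Genes were filtered with filterByExpr, scaled by TMM and compared by age with the quasi-likelihood test of edgeR 4.0.16 (R 4.3.3), with Benjamini-Hochberg adjustment over all 22485 genes tested. DESeq2 1.42.0, the tool the study names, served as an alternative, with other scalings, filters, leave-one-out fits and a replicate block. The fitting was tested on simulated counts. Coordinates came from GENCODE M21, promoters and miRNAs from RefSeq. The members and lists were chosen with earlier results of these data known. The members were named individually where the ages did not overlap or where they are the key pair of a locus, and from each other list the 2 genes with the largest absolute log2 fold change were named. Same-numbered libraries are not described as a pair. Each gene's precision is limited by 2 libraries per age, and at 68803304 to 98402403 reads per library a count of 3 was taken as the floor, which covers counting error only.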

Additional observations from a re-analysis of the deposited data

How the results depend on the processing

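No member was called by edgeR under any scaling, filter, leave-one-out fit, replicate block or robust dispersion tried, while DESeq2 called 5 members and 845 genes. Scaling by total counts only moved the median log2 fold change of all genes from -0.04 to -0.22 and that of Dlk1 to -0.0189. The numbers do not pair the libraries (the deviations of same-numbered libraries correlated at -0.48), and a fit with the replicate block called 0 members and 0 genes, with 6 members and 1346 genes at an unadjusted p under 0.05, instead of 11 and 2371. Crossing the numbers, chosen after seeing the data, called 0 members and 0 genes, with 9 members and 2494 genes at that p. The value of Peg3 was -0.0480 with the block and -0.0477 with the crossed numbers, and they changed no call. Leaving out 1 library gave ranges across 0 for Airn (-0.59 to 0.16), Ascl2 (-0.0565 to 2.18), Ddc (-2.04 to 0.20), Dlk1 (-0.18 to 0.62), Igf2 (-0.37 to 0.12), Mest (-0.49 to 0.76), Nnat (-1.59 to 2.25), Peg3 (-1.15 to 0.86), Phlda2 (-0.98 to 0.50), Plagl1 (-0.14 to 0.68), Zdbf2 (-1.92 to 0.18) and Zim1 (-1.77 to 0.0105). The medians ranged from -0.0825 to 0.45 over all members, -0.0357 to 0.63 for the paternal and -0.94 to 0.32 for the maternal class, -2.97 to -1.32 for Dlk1/Meg3, -0.66 to -0.16 for Igf2/H19, -0.32 to 0.47 for Kcnq1 and -1.15 to 0.80 for Peg3. The cause of these moves was not tested. Ascl2 had too few reads for a value when at least 10 counts were required in every library.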

Other observations

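Of 41 further imprinted genes, 34 were tested, with a median log2 fold change of 0.13 and 22 positive and 12 negative values. Both aged libraries were above both young ones for 11 of the 34 and below for 7, beside 23.3% and 22.8% of all genes. None was called by edgeR (0 of 34). At an unadjusted p under 0.05 in that test, 7 were higher and 1 was lower, beside 7.24% and 3.31% of all genes. DESeq2 called 1, beside 3.67% of all genes it tested. It was Dcn, which encodes the collagen-binding proteoglycan decorin and is imprinted in the placenta. Dcn had 272 and 248 CPM in aged 1 and aged 2, against 89.0 and 118 CPM in young 1 and young 2 (log2 fold change 1.33 ± 0.20, adjusted p = 0.36 by edgeR and 8.99e-05 by DESeq2), and it was named after its values were seen. The genes with the largest absolute log2 fold change were Tspan32 at -3.25 ± 1.69 and Sfmbt2 at -2.05 ± 1.10, both set by young 1. Tspan32, a tetraspanin of blood cells in the Kcnq1 domain, had 84.4 CPM there against 2.24 to 6.95 CPM in the other libraries. Sfmbt2, a Polycomb gene, had 6.99 CPM there against 0.775 to 1.10 CPM, and young 1 was also the library with the highest immune markers.

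Within the Kcnq1 interval 18 of 21 other annotated genes had at least 10 reads, of which 6 were higher and 1 was lower in both aged libraries, beside 22.4% and 21.8% of all genes with as many reads. Within the Peg10/Sgce interval 9 of 13 did, with 3 higher and 1 lower, beside the same shares.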
